A study of Mus musculus with 4 samples.

Results

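Cytoplasmic ribosomal protein genes encode the proteins of the ribosome that translates nuclear messenger RNA. The genes were taken by symbol alone, as every symbol made of Rpl or Rps, a number and at most 1 letter, together with Rplp0, Rplp1 and Rplp2, and no expression value entered the choice. This gave 80 of the 23235 symbols in the tables. Of these, 76 encode the standard proteins of the large and the small subunit, and 4 are paralogs with restricted expression or a regulatory role (Rpl3l, Rpl10l, Rpl39l and Rps27l). A mean of 1 FPKM or more over the libraries was reached by 78, and these were compared. Rpl10l and Rpl3l did not reach it.

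RNA came from primary embryo fibroblasts of C57BL/6 mice, cells grown out of minced embryos, with 1 library for each of 4 genotypes. The genotypes were wild type, Gadd45a-deficient (Gadd45-/- in the labels, named Gadd45a in the series' design text), Terc-deficient in generation 3 without telomerase RNA (G3 Terc-/-), and G3 deficient for both genes. The labels give each deletion for the mice and name no Cre or promoter, and whether several embryos entered a culture is not given in the sources used here. No genotype had a second library, so no difference below has a replicate check, an error or a test, and each describes 1 pair of libraries.

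Several facts of the libraries bear on all values. The Gadd45a transcript stood at 22.9 FPKM in the wild-type library, 33.9 in that labelled Gadd45a-deficient, 31.4 in that of G3 Terc-deficient cells and 45.1 in that labelled doubly deficient. It was thus higher in both libraries labelled as lacking the gene than in their partners, so these libraries are called by their labels throughout, and whether the deletion leaves a transcript was not tested. Depth, estimated from the lowest values, was 19600000 to 20000000 fragments in each library, at which 1 FPKM on a 500-base transcript stands for 9.79 to 9.99 fragments. Summed FPKM of 10 fibroblast markers was 11612, 12238, 7312 and 11595 in wild type, labelled Gadd45a-deficient, G3 Terc-deficient and labelled doubly deficient. The markers of leukocytes, endothelium, skeletal muscle and erythroid cells summed to at most 4.02 FPKM in any library, with Cd3e at 0 in all. Sums were 1.67 to 9.22 for epithelial, 0.0272 to 6.44 for hepatic and 26.2 to 77.2 for neural markers. In bulk RNA, fewer cells of a type and less RNA per cell cannot be told apart.

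A ribosome holds about equal numbers of nearly all its proteins, and cells make them from messages that are among the most abundant they have. Most of these messages start with a C followed by a run of pyrimidines, the terminal oligopyrimidine or TOP tract, through which the kinase complex mTORC1 and the RNA-binding protein Larp1 control their translation. When ribosome assembly fails, free Rpl5 and Rpl11 bind Mdm2 and stabilise p53, which ties this gene family to growth arrest in fibroblasts.

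Start-site windows are shown for the 4 genes with the lowest and the 4 with the highest difference between G3 Terc-deficient and wild type. These were picked among genes with a RefSeq start, leaving out the paralogs, Rpl26 and Rps27. The last window is of Rps27, whose FPKM varied most as a ratio between libraries among the compared genes. Each window holds 15 bases before and 15 after an annotated start, from RefSeq on GRCm38.p6, written 5′ to 3′ on the gene's strand. Rpl10a and Rpl22 have more than 1 start in the table, and the one with the longest run is shown. Capitals mark the longest unbroken run of C and T in the window, or the first of several equally long runs.
Rpl10a at chr17:28328456-28328485, plus strand: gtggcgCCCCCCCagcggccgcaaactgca
Rps2 at chr17:24720048-24720077, plus strand: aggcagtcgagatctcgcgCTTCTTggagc
Rpl10 at chrX:74270801-74270830, plus strand: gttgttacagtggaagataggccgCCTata
Rps4x at chrX:102189377-102189406, minus strand: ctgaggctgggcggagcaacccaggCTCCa
Rpl22 at chr4:152324421-152324450, plus strand: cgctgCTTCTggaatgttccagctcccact
Rpl28 at chr7:4792950-4792979, plus strand: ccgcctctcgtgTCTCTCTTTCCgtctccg
Rpl24 at chr16:55966260-55966289, plus strand: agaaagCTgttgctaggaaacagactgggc
Rplp2 at chr7:141447636-141447665, plus strand: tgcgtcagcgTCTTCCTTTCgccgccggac
Rps27 at chr3:90213634-90213663, minus strand: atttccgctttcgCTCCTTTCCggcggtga
Rplp2, Rpl28 and Rps27 carry runs of 10, 11 and 9 pyrimidines close to the start, whereas Rpl24 has none longer than 2 in the window, and annotated starts may lie away from the start the cells use.

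Over the family, RefSeq starts matched 58 of the 78 compared genes, with 69 starts. A run of 8 or more C or T on the given strand, within 50 bases of the start, was present at 81.2% of these starts against 35.7% of all 32851 starts in the table. The motif CTTTC, on the same strand and in the same window, was present at 50.7% against 12.8%, and it can lie within such a run. CGGAAG, the core bound by Ets factors such as Gabpa, was present on either strand of the 300-base promoter at 63.8% against 16.9%. TATAAA was present at 5.8% against 3.4%. These matches describe letters in the windows and not bound sites.

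Ribosomal protein messages made up 19.3% of the summed FPKM of wild-type cells, 18.3% under the label Gadd45a-deficient, 14.6% under G3 Terc-deficient and 16.1% under doubly deficient. The share was thus lowest in G3 Terc-deficient and lower in both G3 libraries than in both Terc-proficient ones. The median gene of the 80 reached 1113, 1012, 799 and 863 FPKM in these libraries. FPKM is corrected for transcript length, so levels can be set side by side between genes, though only roughly. The correction was not tested for short genes such as Rpl41 and Rps28, with 138 and 207 coding bases. Near-identical copies, described below and annotated for 70 of the 80 genes, can also bear on a level. In wild type, 63 of the 76 standard genes lay between 500 and 2500 FPKM.

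**Figure D1:**
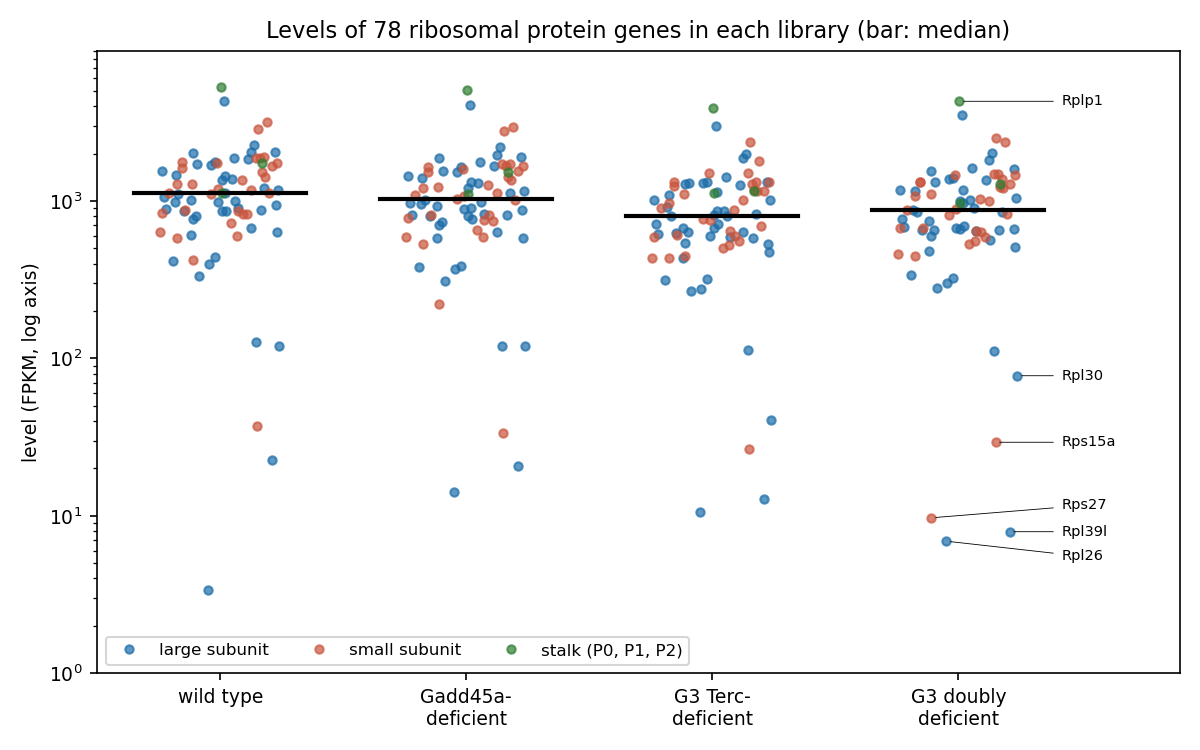
Level of each of the 78 compared ribosomal protein genes in each of the 4 libraries, in FPKM on a log axis. Points are genes, coloured by subunit, and bars are medians over the 78 genes; most genes lie near 1000 FPKM, and Rpl30, Rps15a, Rps27, Rpl39l and Rpl26 lie far below in the doubly deficient library.

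The most abundant message was Rplp1, which forms the acidic stalk of the large subunit with Rplp0 and Rplp2 and recruits elongation factors. It stood at 5314 FPKM in the wild-type library, 5091 in that labelled Gadd45a-deficient, 3867 in that of G3 Terc-deficient cells and 4297 in that labelled doubly deficient. Rpl41, a short basic peptide of the large subunit, followed at 4331, 4067, 3014 and 3512 FPKM in these libraries. Both were highest in wild type and lowest in G3 Terc-deficient. Next came Rps28, near the messenger RNA exit channel of the small subunit, at 2849, 2772, 2356 and 2493 FPKM, and Rps2, near its entry channel, at 3169, 2969, 1807 and 2364 FPKM. Rps2 ranked above Rps28 in wild type and below it in both G3 libraries. Rpl38, needed for translation of Hox messages in mouse embryos, was the fifth by mean level at 2251, 2198, 1986 and 2019 FPKM, a narrow range.

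Low levels belonged to few genes. Rpl22, a large-subunit protein needed in mouse T cell development, stood at 127, 119, 113 and 112 FPKM, and Rps15a, a small-subunit protein, at 37.0, 33.5, 26.5 and 29.3 FPKM. Rps15a has 6 annotated near-identical copies, and those with values here had means of 5.33 and 0.0619 FPKM. Whether copies bear on its low level was not tested. Rpl30, Rps27 and Rpl26 were also low, each beside an abundant near-identical copy described below. Of the paralogs, Rps27l, a p53 target in human cells, was expressed like a standard gene at 601, 589.7, 527 and 559.9 FPKM. Rpl39l, most abundant in mouse testis, stood at 22.8, 20.8, 12.8 and 7.92 FPKM, and was the only paralog of the 4 with a difference of 2-fold or more, between the library labelled doubly deficient and each Terc-proficient library. Rpl3l, a muscle paralog of Rpl3, was listed at 0 in 3 libraries and at 0.0434 FPKM in G3 Terc-deficient. Rpl10l, a testis paralog of Rpl10, was listed at 0.13 FPKM in wild type and 0 in the others.

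Between G3 Terc-deficient and wild type, nearly the whole family stood lower in the G3 library, by a modest and similar amount. All differences below are of log2(FPKM + 1), and a 2-fold difference is 1 on that scale. The difference was below 0 for 76 of the 78 genes, where 49.5% of the 11589 symbols compared were below 0. The median was -0.46, a ratio of 0.727, beside a median of 0.0060 over all symbols. By 2-fold or more, 1 gene was lower (Rpl30) and 1 higher (Rpl26), where 6.24% of symbols were lower and 9.93% higher. By 1.5-fold or more, 15 of the 78 genes were lower, where 15.2% of symbols were. The family was therefore marked by its common direction and not by the number of large differences. The SD over the 78 genes was 0.30, against 0.87 over all symbols, and 0.21 over the 74 genes without the paralogs, Rps27 and Rpl26. It was 0.18 over 34 proteasome subunits and 0.37 over 76 mitochondrial ribosomal protein genes. A narrow spread was thus not particular to the family. After quantile normalization 69 of the 78 genes were below 0 and 8 above, with a median of -0.32 beside -0.071 over all symbols. The summed fibroblast markers were also lower in this pair, 7312 against 11612 FPKM, and their part in the result was not tested.

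The subunits had like medians. The median difference was -0.46 for 42 large-subunit genes, -0.47 for 29 small-subunit genes and -0.46 for the 3 stalk genes. Summed FPKM of small over large subunit, without the stalk, was 0.801, 0.801, 0.809 and 0.790 in the 4 libraries. Unlike the medians, these sums include the paralogs, Rpl26 and Rps27, whose uncertain values are described below. The median was -0.51 for 31 genes whose protein is conserved in all domains of life and -0.43 for the other 43. The 4 X-linked genes, Rpl10, Rpl36a, Rpl39 and Rps4x, had a median of -0.54.

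Apart from Rpl30, the lowest value belonged to Rpl10a, a protein that only some ribosomes carry in mouse embryonic stem cells. Its level was 939.6, 874, 531 and 662 FPKM in wild type, labelled Gadd45a-deficient, G3 Terc-deficient and labelled doubly deficient, a difference of -0.82 between G3 Terc-deficient and wild type. Rps2 followed with -0.81. Rpl10, which joins the large subunit late and completes its peptidyl transferase centre, stood at 1365, 1209.9, 811 and 1000.5 FPKM, a difference of -0.75. In each of these genes both G3 libraries lay below both Terc-proficient ones. Rpl3, next to the peptidyl transferase centre, was close at 981, 888, 599 and 676 FPKM and -0.71.

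At the other end, Rplp2 had nearly the same level in 3 libraries, 1119 FPKM in the wild-type library, 1115 in that labelled Gadd45a-deficient, 1116 in that of G3 Terc-deficient cells and 971 in that labelled doubly deficient, and its difference was -0.004. Its stalk partners Rplp0 and Rplp1 stood at -0.58 and -0.46. Rpl24, mutated in the mouse strain Belly spot and tail, was at 990.1, 962, 918 and 881 FPKM with -0.11, and Rpl28 was at 2045, 1949.7, 1868 and 1819 FPKM with -0.13. For these 3 genes the library labelled doubly deficient, not G3 Terc-deficient, held the lowest level.

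**Figure D2:**
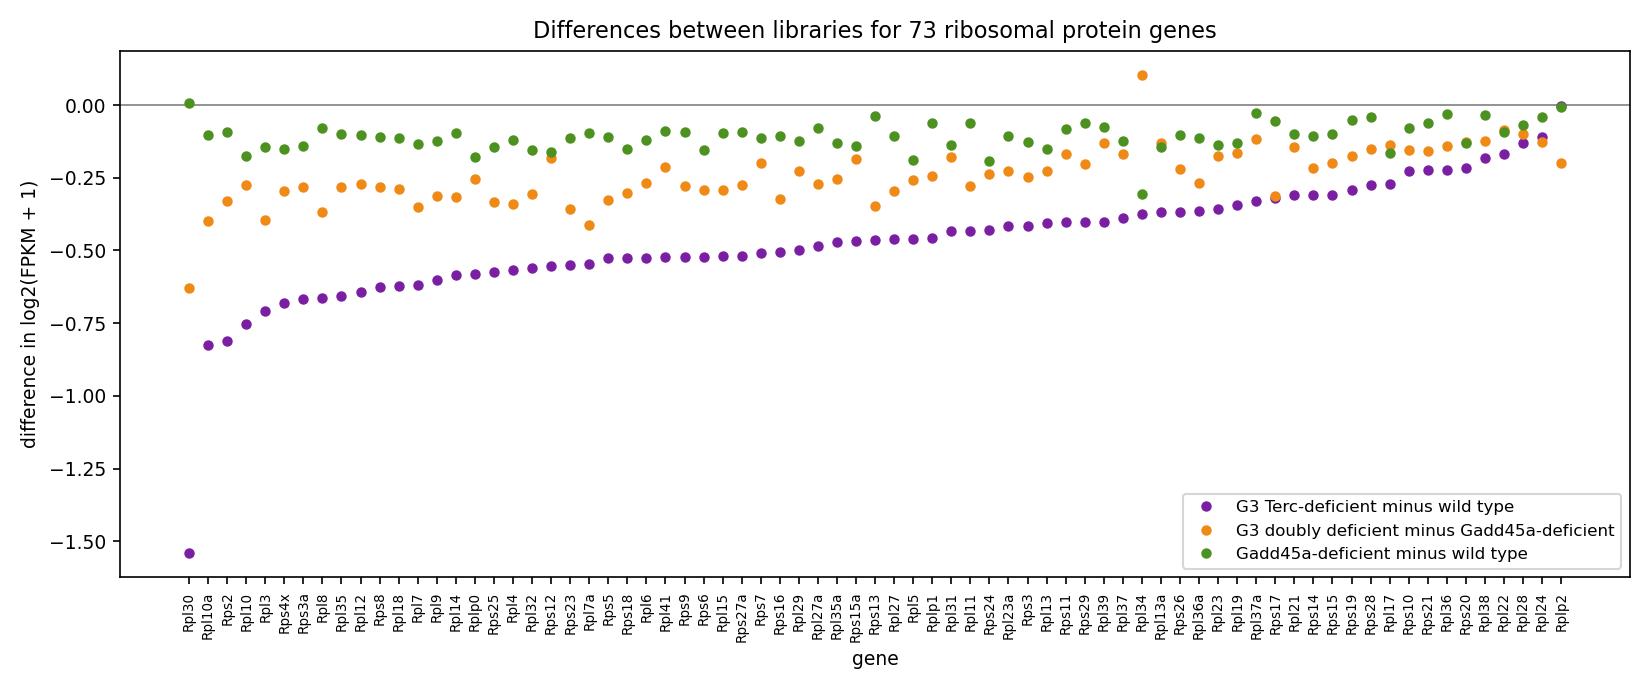
Difference in log2(FPKM + 1) for 73 ribosomal protein genes, ordered by the difference between G3 Terc-deficient and wild type, for 3 pairs of libraries. Points are genes; the purple points run from -1.54 for Rpl30 to near 0 for Rplp2, the orange points lie between purple and 0 for most genes, and the green points stay near -0.11.

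Of the members of the Mdm2 and p53 surveillance arm, Rpl5, Rpl11, Rps7 and Rpl23 stood with the family. Rpl5 was at 442, 388, 321 and 324 FPKM, a difference of -0.46 between G3 Terc-deficient and wild type. Rpl11 was at 1469.7, 1408, 1088 and 1162 FPKM and -0.43. Rps7 and Rpl23, which also bind Mdm2 in human cells, had differences of -0.51 and -0.36. Rps27l, of the same arm, was nearer 0 at -0.19. Rps27 and Rpl26, also of this arm, were the only 2 of the 78 genes above 0, at 0.095 and 1.39. With their near-identical copies, described below, they stood at -0.38 and -0.19. Mdm2 itself, a p53 target, stood at 49.2 FPKM in the wild-type library, 52.1 in that labelled Gadd45a-deficient, 159 in that of G3 Terc-deficient cells and 73.3 in that labelled doubly deficient. It was thus highest in the library where the ribosomal protein messages were lowest, and whether the values are tied was not tested.

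Rps6, Rps3, Rps27a, Rps19, Rps14 and Rpl13a, genes with well known single roles, stood between -0.52 and -0.29. Of the other genes named for such roles, Rps2, Rpl10 and Rplp0 stood lower, at -0.81, -0.75 and -0.58. Rplp1 lay within the range at -0.46, and Rpl22 and Rplp2 stood higher, at -0.17 and -0.004. Rps6, the substrate of S6 kinase, had a difference of -0.52, and Rps3, which also has a DNA repair activity, -0.41. Rps27a, made as a fusion with ubiquitin, had -0.52. Rps19, the gene most often mutated in human Diamond-Blackfan anaemia, stood at 1414, 1365, 1154 and 1208 FPKM and -0.29. Rps14, tied to anaemia in a human myelodysplastic syndrome, had -0.31, and Rpl13a, released from ribosomes after interferon in human cells, -0.37. The 20 genes mutated in human Diamond-Blackfan anaemia had a median of -0.43.

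Genes with longer coding sequences stood lower in the median. The median difference was -0.36 for 8 genes of up to 300 coding bases, -0.43 for 25 genes above 300 and up to 450, -0.43 for 19 up to 600, -0.54 for 18 up to 900 and -0.64 for 4 up to 1500. Across the 74 genes Spearman's rho between coding length and difference was -0.49, and -0.53 without Rpl30 and Rpl34. Across 686 other symbols with a mean of 100 FPKM or more, of any coding length, it was -0.029. In the same length steps, such other symbols had medians of -0.039, -0.12, -0.0046, -0.17 and -0.13. The genes share their libraries and are not replicates, so these values are descriptions. Mean level was not related in the same way, with a rho of 0.069.

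Some single genes cannot be read alone, because the mouse genome holds many near-identical copies of ribosomal protein genes. In GENCODE M21, 70 of the 80 had at least 1 other annotated gene that matched 95% or more of the bases over 90% or more of the coding sequence, with a median of 4.5 and a maximum of 56 for Rpl21. For 5 genes such a copy was itself in the tables with a mean of 10 FPKM or more. Values of these genes are uncertain, and whether fragments were divided between gene and copy was not tested.

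Rps27, a small-subunit protein, stood at 419.8 FPKM in the wild-type library, 220.4 in that labelled Gadd45a-deficient, 448 in that of G3 Terc-deficient cells and 9.7 in that labelled doubly deficient. The copy Gm9846 had 1104, 1201, 719.8 and 1297 FPKM in these libraries, and gene and copy summed to 1523, 1421, 1168 and 1307 FPKM. Between the libraries labelled doubly deficient and G3 Terc-deficient, Rps27 alone differed by -5.39 and the sum by 0.16. The very low Rps27 in that library thus lay beside the highest value of its copy.

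Rpl26, a large-subunit protein that binds p53 messenger RNA in human cells, stood at 3.39, 14.1, 10.5 and 6.89 FPKM, far below its copy Gm15772 at 1175, 1094, 1022 and 984 FPKM. The difference between G3 Terc-deficient and wild type was 1.39 for Rpl26 and -0.19 for the sum. Rpl30, a large-subunit protein, was at 119.8, 120.4, 40.5 and 77.6 FPKM and its copy Gm12191 at 1201, 1109, 876 and 912 FPKM. Its difference was -1.54 alone and -0.53 with the copy. Rpl34, another large-subunit protein, had -0.37 alone and -0.39 with Rpl34-ps1. Rpl21, also of the large subunit, had -0.31 alone and -0.28 with its scarce copy BC004004. With copies added, all 78 genes were below 0 between G3 Terc-deficient and wild type, from -0.82 to -0.0040, and none passed 2-fold, while the median stayed at -0.46.

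**Figure D3:**
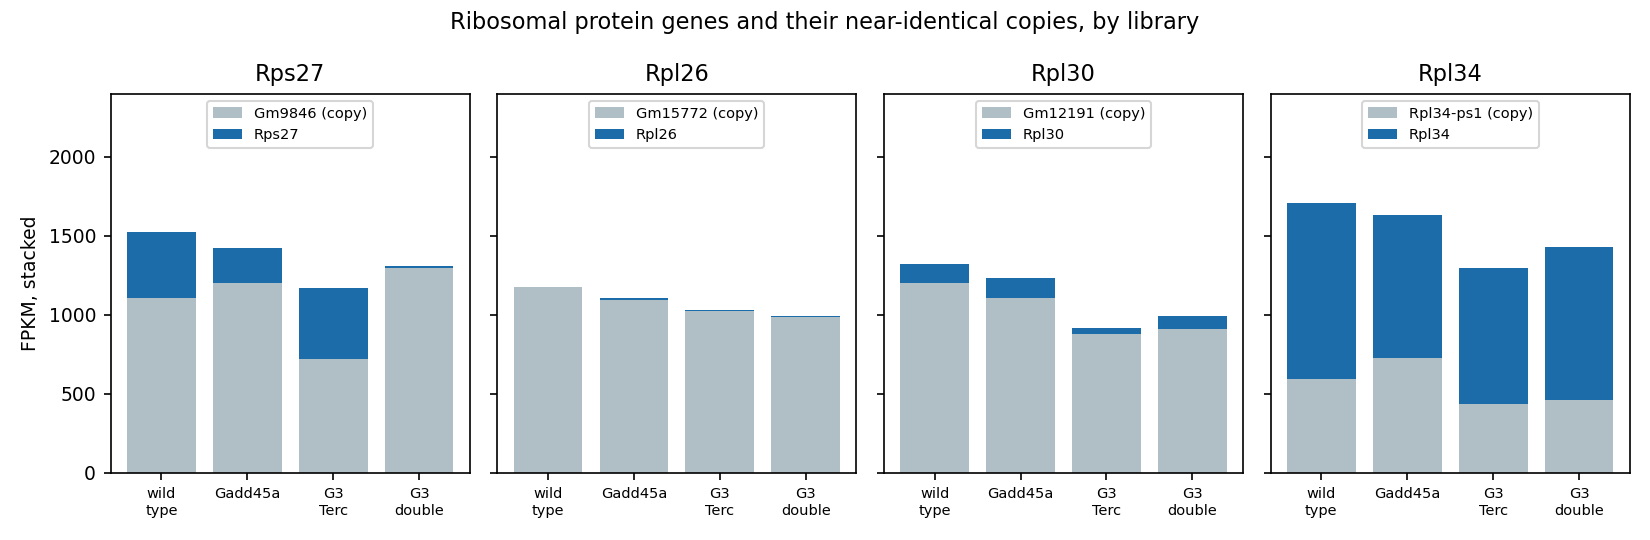
FPKM of 4 ribosomal protein genes (blue) stacked on their near-identical copies (grey) in each library. Bar height is the sum of both; the blue part of Rps27 ranges from 9.70 to 448 FPKM while the whole bar ranges from 1168 to 1523.

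The second pair of libraries that differ in Terc status, labelled doubly deficient and labelled Gadd45a-deficient, shares no library with the first. There the difference was below 0 for 77 of 78 genes, where 51.1% of all symbols were, and for 66 of 78 after quantile normalization. The median was -0.25 beside -0.010 over all symbols, and -0.14 beside -0.00095 after quantile normalization. By 2-fold or more 2 genes were lower, Rps27 and Rpl39l, where 2.35% of symbols were, and none was higher, where 2.49% were. The sex-linked transcripts Xist and Ddx3y also separate this pair: Xist stood at 24.0, 0.154, 30.2 and 34.1 FPKM and Ddx3y at 0.0115, 16.4, 0.0228 and 0.0113 FPKM in wild type, labelled Gadd45a-deficient, G3 Terc-deficient and labelled doubly deficient, so sex and genotype cannot be told apart in pairs with the library labelled Gadd45a-deficient.

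The order of genes was alike in both pairs. Over 74 genes Spearman's rho between the separate differences was 0.81 and Pearson's r 0.78, and 0.80 and 0.77 without Rpl30 and Rpl34. Over the 11511 other symbols they were 0.72 and 0.65, so a like order was not particular to the family. Rpl10a stood at -0.40 and Rpl3 at -0.39 in the second pair, and Rpl28 at -0.10. Rplp2, near 0 in the first pair, stood at -0.20. Rpl34 was the only gene above 0, at 0.10, and was at -0.19 with its copy. Both G3 libraries held the lowest levels in 72 of the 74 genes (97.3%), where 35.2% of all symbols had this pattern.

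**Figure D4:**
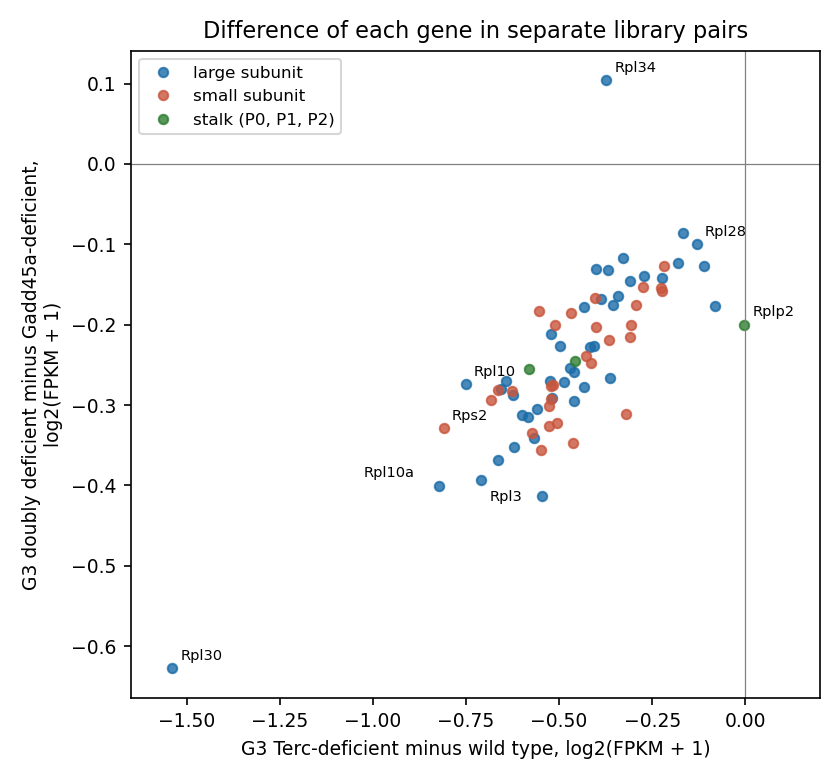
Difference in log2(FPKM + 1) of 74 ribosomal protein genes in the pair G3 Terc-deficient and wild type (horizontal) and in the pair doubly deficient and Gadd45a-deficient (vertical), which share no library. Points are genes coloured by subunit; all but Rpl34 lie below 0 on the vertical axis, and Spearman's rho is 0.81.

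Set against wild type directly, the library labelled doubly deficient was below 0 for 77 of 78 genes, where 54.5% of symbols were, with a median of -0.37 beside -0.043. After quantile normalization 71 of 78 were below 0 and the median was -0.20, beside -0.021 over all symbols. Rps27 and Rpl39l were lower by 2-fold or more, where 2.85% of symbols were, and none was higher, where 3.81% were. This comparison shares its libraries with those above.

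The label Gadd45a went with small differences of opposite sign in the 2 Terc backgrounds. In Terc-proficient cells, the library labelled Gadd45a-deficient was below wild type for 76 of 78 genes, where 57.5% of symbols were, and for 56 of 78 after quantile normalization. The median was -0.11 beside -0.027 over all symbols, and -0.047 beside -0.013 after quantile normalization. The SD over the 78 genes was 0.24, against 0.29 over all symbols. It was 0.048 over the 74 genes without the paralogs, Rps27 and Rpl26, a cut not made for all symbols. Only Rpl26 passed 2-fold, upward, where 0.337% of symbols did, and none passed it downward, where 0.198% did. Among genes without an abundant copy, the lowest were Rps24, another gene of human Diamond-Blackfan anaemia, at 866, 757, 643 and 642 FPKM and -0.19, and Rpl5 at -0.19. Rplp2 at -0.01, Rpl37a, a zinc-binding large-subunit protein, at -0.03 and Rps27l at -0.03 were closest to 0. The pair also differs in Xist and Ddx3y, as given above, and the part of either in the result was not tested. The 4 X-linked genes had a median of -0.13.

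Between the G3 libraries, the one labelled doubly deficient stood above G3 Terc-deficient for 63 of 78 genes, where 46.2% of symbols did. The median was 0.091 beside -0.031 over all symbols. After scaling to a common total without the abundant symbols and the family, it was 0.19 beside 0.055. After quantile normalization it was 0.12 beside 0.062. In the values as deposited, no gene was higher by 2-fold, where 1.52% of symbols were, and Rps27 was lower, where 4.78% were. Rpl30 was highest at 0.92, or 0.11 with its copy. Next were Rps2 at 0.39, Rpl10a at 0.32 and Rpl10 at 0.30. Rplp2 lay below 0 at -0.20. The summed fibroblast markers, at 7312 and 11595 FPKM, moved the same way between these libraries, and their part in the result was not tested.

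The double difference takes the Gadd45a difference seen with Terc away from that seen in the G3 pair, and so uses all 4 libraries. It was above 0 for 72 of 78 genes, or 92.3%, where 49.7% of all symbols were, with a median of 0.21 beside -0.0027. In 60 of the 74 genes (81.1%) the libraries fell in the order wild type, labelled Gadd45a-deficient, labelled doubly deficient and G3 Terc-deficient from high to low, where 17.2% of all symbols did. Neither result is separate from the differences given above. Both include the library labelled Gadd45a-deficient, which stands apart in Xist and Ddx3y, so sex and genotype cannot be told apart in them. Across the 74 genes the Gadd45a differences in the separate backgrounds had a Spearman's rho of -0.098.

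Other genes of translation were set beside the family. Of 8 ribosomal proteins and paralogs outside the symbol rule, all 8 were below 0 between G3 Terc-deficient and wild type, with a median of -0.57. Of all symbols, 49.5% were below 0. The list includes Gm9846, the uncertain copy of Rps27 described above, at -0.62. Fau, made as a fusion with a ubiquitin-like protein, had the smallest difference, at 1315, 1268, 1314 and 1160.5 FPKM with -4.4e-05. Rpl22l1, the paralog that stands in for Rpl22 in mouse cells, had the largest at 183, 141, 44.6 and 89.2 FPKM and -2.01, whereas Rpl22 itself had -0.17. Rpsa, the small-subunit protein also known as a laminin receptor, had -0.67.

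Elongation factors and other TOP messages, 26 genes, had a median of -0.49 with 26 below 0 and 5 lower by 2-fold, where 49.5% of all symbols were below 0 and 6.24% lower by 2-fold. Eef1a1, which brings aminoacyl-tRNA to the ribosome, stood at 4499.7, 4016, 3328 and 3667 FPKM and -0.43. Npm1, the nucleolar chaperone nucleophosmin, stood at 695, 632, 293 and 363 FPKM and -1.25. Translation initiation factors, 28 genes, had -0.53 with 27 below 0. The exception was Eif4a2, an RNA helicase of initiation, at 44.7, 41.3, 87.1 and 66.9 FPKM and 0.95, while its close relative Eif4a1 was at 404, 389.7, 205 and 282 FPKM and -0.97.

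The lowest median of these lists belonged to 33 ribosome assembly factors, at -0.89 with 32 below 0 and 16 lower by 2-fold, beside those 49.5% and 6.24% of all symbols. Nop56, a core protein of the box C/D RNA particles that methylate ribosomal RNA, stood at 80.3, 81.9, 26.1 and 45.9 FPKM and -1.58, and Fbl, the methyltransferase of the same particles, at 155, 155, 67.6 and 87.8 FPKM and -1.19. RNA polymerase I genes, 14 in number, had -0.48, and 10 chaperones and importins of ribosomal proteins -0.44. Regulators of mTORC1 and TOP messages, 17 genes, had -0.32, and the 7 Myc family genes -0.08. Larp1 stood at 53.4, 51.8, 36.1 and 43.9 FPKM and -0.55, and Myc, an activator of ribosomal genes, at 44.5, 36.4, 31.9 and 14.9 FPKM and -0.47.

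As abundant or structural comparisons, the median was -0.28 for 76 mitochondrial ribosomal protein genes, 59 of them below 0, and -0.20 for 34 proteasome subunits, 25 of them below 0. These values are between G3 Terc-deficient and wild type, where 49.5% of all symbols were below 0. Between the libraries labelled doubly deficient and Gadd45a-deficient the medians were -0.64 for assembly factors, -0.30 for initiation factors, -0.27 for elongation factors and other TOP messages, -0.20 for mitochondrial ribosomal proteins and -0.16 for proteasome subunits. Within the ribosomal protein genes, 46 with a run of 8 or more C or T near a RefSeq start had a median of -0.47 between G3 Terc-deficient and wild type and 8 without it -0.44. The 28 with CTTTC had a median of -0.42 and 26 without it -0.52. The medians with and without CGGAAG were -0.46 for 37 genes and -0.47 for 17.

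**Figure D5:**
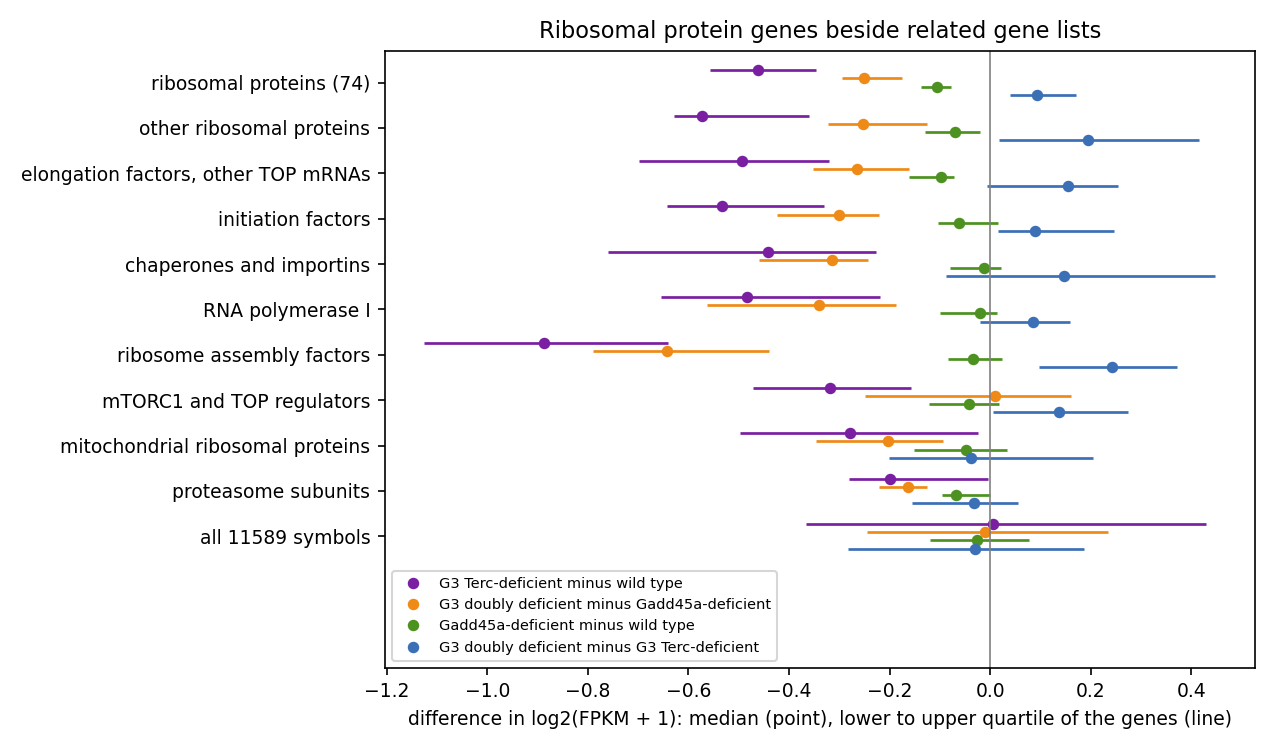
Median difference in log2(FPKM + 1), with the lower to upper quartile of the genes as a line, for ribosomal protein genes, related gene lists and all 11589 symbols, in 4 pairs of libraries. In the purple pair (G3 Terc-deficient and wild type) ribosome assembly factors lie lowest at -0.89, ribosomal proteins at -0.46 and all symbols near 0.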

How the data were processed

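Values were taken from the authors' FPKM tables as deposited, with 1 value for each gene symbol and library, scaled to transcript length and mapped fragments. Per the labels' protocols, DNase-treated RNA was enriched for poly(A) and primed with random hexamers. Per the submitters' processing notes, mm9, Cufflinks 2.2.1 and TopHat2 2.1.1 were listed, with no role stated. What annotation, strand setting and filters were used is not given in the sources used here. These values are relative, so more signal in a few abundant genes lowers all others.

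With Python 3.11.15, pandas 2.3.3 and numpy 2.4.6, 738 short noncoding symbols were left out of 23235 and differences of log2(FPKM + 1) were taken between libraries in 5 comparisons; FPKM are not counts, and 1 library per genotype allows no test. Symbols with a mean of 1 FPKM or more, 11589, were compared, and 2-fold was the size rule. Depth was estimated from values up to 0.05 FPKM on transcripts of 1500 to 8000 bases, as whole multiples of 1 fragment, with 76.0% to 82.8% of them within 0.1 of a whole number. The differences and the size rule were tested on simulated data, tables with the real mean levels and known folds but no noise. Copies were found with BLAST+ 2.17.0 in GENCODE M21 (GRCm38), and promoters came from RefSeq on GRCm38.p6, a build other than the files', so no coordinate was joined to the files. The genes named are the 4 farthest each way and the 4 farthest from the family's median in each comparison, the 5 most and 5 least abundant, the paralogs, and genes with known single roles; Rps4x, Rpl24, Rpl36a, Rpl39 and Rpl21, shown with a window, a group or a copy, and the genes outside the family were named after their values were seen. The members and lists were chosen with earlier results of these data known, and the list of universally conserved proteins, the sums with copies and the correlations without Rpl30 and Rpl34 were added after the values were seen. Alternatives were other pseudocounts, filters, scalings and size rules. Some genes that the naming rule selects are not reported here.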

Additional observations from a re-analysis of the deposited data

Results flagged for a closer look

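The median difference of the ribosomal protein genes went opposite ways with the Gadd45a label in the 2 Terc backgrounds. It was -0.11 between the library labelled Gadd45a-deficient and wild type and 0.091 between the library labelled doubly deficient and G3 Terc-deficient. Under alternatives they went as near 0 as -0.047 for the first, by quantile normalization, and as high as 0.19 for the second, by a common total without abundant symbols and the family. There the medians over all symbols were -0.013 and 0.055. The difference between the family's 2 medians was not tested, since each rests on single libraries.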

How the results depend on the processing

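The direction of the family's median was kept in all 5 comparisons under every alternative run. Of 50 medians, 3 moved by more than 0.1, all under quantile normalization, to -0.32 between G3 Terc-deficient and wild type, -0.14 between the libraries labelled doubly deficient and Gadd45a-deficient, and -0.20 between labelled doubly deficient and wild type. A step of 0.1 is about the size of the medians that go with the Gadd45a label, which ranged over the alternatives from -0.11 to -0.047 (quantile normalization) in Terc-proficient cells and from 0.089 to 0.19 (common total without abundant symbols and the family) in G3 cells. Less the median over all symbols, these ranged from -0.11 to -0.035 and from 0.063 to 0.13. Between G3 Terc-deficient and wild type that excess ranged from -0.47 to -0.25. The cause was not tested. The share of all FPKM, which scaling a whole library cannot change, was 15.4% in G3 Terc-deficient and 18.6% in wild type after quantile normalization. Counts past 2-fold were of 0 to 3 genes. With copies summed, 0 genes were higher and 0 lower between G3 Terc-deficient and wild type, 0 higher between labelled Gadd45a-deficient and wild type, 0 lower between the G3 libraries, and 1 lower in both other comparisons. Leaving out the paralogs, Rps27 and Rpl26 gave 0 higher in both comparisons with 1 and 0 lower in the 3 with labelled doubly deficient. A mean of 10 FPKM or a pseudocount of 10 gave 0 higher in both comparisons with 1, and the pseudocount of 10 gave 1 lower in each comparison with 2. At 1.5-fold, 15 genes were lower between G3 Terc-deficient and wild type (15.2% of all symbols), 2 lower and 1 higher between the G3 libraries (10.8% and 6.16%), 4 lower between labelled doubly deficient and Gadd45a-deficient (7.82%), 1 higher between labelled doubly deficient and wild type (10.1%) and 1 lower between labelled Gadd45a-deficient and wild type (0.725%). Quantile normalization gave 1 higher between the G3 libraries and 1 lower between labelled Gadd45a-deficient and wild type, a common total without abundant symbols gave 1 higher between the G3 libraries, and a pseudocount of 0.1 gave 1 higher between labelled doubly deficient and wild type and 3 lower between labelled doubly deficient and Gadd45a-deficient. No paired analysis was possible because each genotype has 1 library, and leaving a library out leaves none in its group. At about 10 fragments for each FPKM on a 500-base transcript, depth limits only the lowest genes, such as Rpl26.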
